A study of Mus musculus with 24 samples.

Results

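The levels of 9 genes of mature and regulatory T cells were followed in the mouse thymus: Foxp3, Ctla4, Ikzf2, Il2rb, Ccr7, Klf2, S1pr1, Slfn1 and Cd69. They were found by gene name among the 41174 gene probes of a 2-colour Agilent array, where 11 probes carry one of their names, and 24398 genes in all were measured. All 11 passed the filter that kept 35185 probes for testing, a Cy5 signal well above background on at least 6 of 24 arrays. In the files Ikzf2 stands under its older name Zfpn1a2 and S1pr1 under Edg1. Clone probes that the gene table lists as another name of Ikzf2 were not counted as members, and their values stand beside those of Ikzf2. Ikzf2 and Klf2 have a pair of probes each, and the brighter one stands for the gene.

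The thymuses came from 15-week-old C57BL/6 mice of 4 genotypes, 6 mice each. Double knockout mice lacked both p27 and stathmin, p27 knockout mice lacked only p27 (gene Cdkn1b, an inhibitor of cyclin-dependent kinases), stathmin knockout mice lacked only stathmin (gene Stmn1, which destabilises microtubules), and wild type mice carried both genes. The study asked how p27 and stathmin control proliferation in the animal. Each genotype had 3 females and 3 males, with the sex of each mouse not given, and the labels name thymuses and no sorted cells. Every array carried thymus RNA in Cy5 and, in Cy3, a pool of fibroblast RNA from all genotypes, with no dye swap. A log2 ratio below is therefore a thymus level relative to the fibroblast pool, and a log2 change is the difference between the mean ratios of a pair of genotypes. The number of arrays limits the precision of all values.

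In the thymus most cells are immature thymocytes that carry both CD4 and CD8, and a small share has passed selection and become mature single-positive cells. These mature cells first carry CD69, a lectin that holds them in the thymus by binding the sphingosine 1-phosphate receptor S1PR1, and later the transcription factor KLF2 turns on S1PR1 so that they can leave for the blood, while CCR7 guides them into the medulla. Regulatory T cells, which restrain immune responses, also arise there under the transcription factor FOXP3 and carry CTLA-4, Helios (Ikzf2) and the interleukin-2 receptor, whose beta chain is encoded by Il2rb. Slfn1 belongs to the Schlafen family and, in mice, is known for restraining thymocyte growth.

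On the brighter probes, Ctla4, Slfn1 and Foxp3 were the members that passed the test in any comparison, all of them higher in the double than in the p27 knockout. Their promoters are shown because these genes moved together. The sequences are those of RefSeq for GRCm38.p6, 250 bases before to 50 after each start, and capitals mark GGAAA or its reverse complement TTTCC, the core to which NFAT, the calcium-driven factor of T cell activation, is known to bind.
Ctla4, chr1:60908775-60909074, + strand: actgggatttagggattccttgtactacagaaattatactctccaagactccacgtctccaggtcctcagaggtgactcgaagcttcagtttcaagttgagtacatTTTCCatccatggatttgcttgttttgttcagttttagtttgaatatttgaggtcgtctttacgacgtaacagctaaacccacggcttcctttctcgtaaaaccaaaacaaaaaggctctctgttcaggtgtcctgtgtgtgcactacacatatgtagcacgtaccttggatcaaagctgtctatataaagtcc
Slfn1, chr11:83116570-83116869, + strand: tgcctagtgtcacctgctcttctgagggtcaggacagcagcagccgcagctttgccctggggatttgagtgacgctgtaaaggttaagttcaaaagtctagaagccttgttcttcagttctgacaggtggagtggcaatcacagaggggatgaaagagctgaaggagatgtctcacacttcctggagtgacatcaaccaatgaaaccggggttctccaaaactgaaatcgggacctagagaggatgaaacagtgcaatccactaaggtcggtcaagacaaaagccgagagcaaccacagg
Foxp3, upstream start, chrX:7579426-7579725, + strand: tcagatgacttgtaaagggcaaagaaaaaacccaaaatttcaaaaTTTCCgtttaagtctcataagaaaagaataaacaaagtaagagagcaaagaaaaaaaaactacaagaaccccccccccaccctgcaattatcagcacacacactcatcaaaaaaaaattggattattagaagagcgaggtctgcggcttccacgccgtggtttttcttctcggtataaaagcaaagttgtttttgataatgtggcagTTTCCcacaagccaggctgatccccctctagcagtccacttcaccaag
Foxp3, downstream start, chrX:7580233-7580532, + strand: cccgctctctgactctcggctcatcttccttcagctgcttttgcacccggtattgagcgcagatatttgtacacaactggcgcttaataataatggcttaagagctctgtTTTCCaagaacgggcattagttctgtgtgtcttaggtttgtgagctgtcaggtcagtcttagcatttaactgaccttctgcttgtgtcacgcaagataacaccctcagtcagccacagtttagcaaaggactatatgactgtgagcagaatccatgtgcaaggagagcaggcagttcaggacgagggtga
That core occurred 1 time in the Ctla4 promoter, 2 times and 1 time at the upstream and downstream Foxp3 starts, and 0 times in the Slfn1 promoter. It was present in 61.3% of 32851 promoters of the same length. The forkhead motif GTAAACA, in either orientation, was in none of these windows and in 3.65% of all promoters. CACCC, a core bound by KLF factors, occurred 1 time and 3 times at the Foxp3 starts and 0 times for Ctla4 and Slfn1, with 57.5% of all promoters holding it. GGAAG, an ETS core that differs from GGAAA in its last letter and so never marks the same bases, occurred 1 time in each of the 4 windows and in 71.4% of all promoters. Of the members, 4 of 9 had an entry, and Klf2 is the other with 1. These matches describe letters and not binding.

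Before the member values, the arrays differed in ways that bear on them. Their brightness, the 99th percentile of Cy5 intensity in units of 1000, was 200.2 to 320.04 in the double knockout, 19.4 to 171 in the p27 knockout, 131 to 340 in the stathmin knockout and 56.3 to 286 in wild type, so the p27 knockout arrays were the dimmest group. Replicates 5 and 6 of the p27 knockout also stood apart, with mean correlations of 0.56 and 0.21 with the other arrays, where the others had 0.77 to 0.86. The median log2 ratio of 11 pan-T cell genes was 4.43 or higher on 23 of 24 arrays and -0.05 on p27 knockout replicate 6, and that of 14 double-positive thymocyte genes was 4.62 or higher and 0.28, so T cell markers stood far above the fibroblast pool on every array but that one, where 9 of the 11 and 8 of the 14 were still well above background. Each of the 6 slides held every genotype once, and a genotype kept its position on all of them, so that the effects of position and of genotype cannot be told apart. For the deleted genes, a Stmn1 probe had ratios of -3.19 ± 0.36 in the double and -2.95 ± 0.75 in the stathmin knockout against 3.097 ± 0.28 in wild type, and a Cdkn1b probe -0.65 ± 0.25 in the double and -0.78 ± 0.21 in the p27 knockout against 0.28 ± 0.39 in wild type (SD, n = 6). Another Stmn1 probe differed less (1.88 in the double and 2.01 in the stathmin knockout, 3.54 in wild type), as did another Cdkn1b probe (-0.61 in the double and -0.99 in the p27 knockout, -0.50 in wild type), and the labels do not say whether these lie in the deleted parts.

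The question of the first comparison was what the loss of stathmin added to that of p27, with the regulatory T cell members taken first. Ctla4, the inhibitory receptor that competes with CD28 for its ligands, had log2 ratios of 2.91, 2.49, 2.77, 2.79, 2.73 and 3.02 in the double knockout mice and 1.23, 1.03, 0.63, 0.91, 0.48 and 0.09 in the p27 knockout mice. The stathmin knockout mice ranged from 0.77 through a median of 2.23 to 3.30, and wild type from -0.03 through 1.67 to 3.26. All double knockout thymuses were above all p27 knockout thymuses, within a range far narrower than that of wild type. The change was 2.05 ± 0.43 (SE, n = 6 each), a 4.15-fold higher ratio, with an adjusted p of 0.0040 by limma. It was positive on 6 of 6 slides, between 1.55 and 2.68. Raw Cy5 intensity had medians of 1244 units in the double, 272 in the p27 and 1205 in the stathmin knockout and 925 in wild type. These raw values are not adjusted for array brightness, which was lowest in the p27 knockout.

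Foxp3, the factor that defines regulatory T cells, had ratios of 1.17, 1.67, 0.66, 1.09, 1.56 and 1.11 in the double knockout and 0.51, 0.70, 0.36, 0.18, 0.32 and -0.31 in the p27 knockout. In stathmin knockout mice it ranged from 0.18 through 0.95 to 2.31, and in wild type from 0.01 through 0.67 to 1.90. The lowest double knockout thymus lay just under the highest p27 knockout thymus, and otherwise the groups were apart. The change of 0.92 ± 0.31 (1.89-fold) passed the test with a limma adjusted p of 0.032, and it was positive on 6 of 6 slides.

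Slfn1 had ratios of 3.67, 3.07, 2.37, 2.00, 2.75 and 2.74 in double knockout mice and 1.23, 0.91, 0.04, 1.47, 0.03 and -0.30 in p27 knockout mice. Stathmin knockout thymuses ran from 0.67 through 1.49 to 2.66 and wild type ones from 0.15 through 1.55 to 3.39. The double and p27 knockout groups did not overlap, while wild type covered nearly the whole range of both. The change was 2.20 ± 0.49 (4.60-fold), with an adjusted p of 0.0047 by limma, and lay between 0.77 and 3.04 on the 6 slides. For Foxp3, Ctla4 and Slfn1 the fibroblast channel was well above background on 0 of 24 arrays, so their ratios compare thymuses with one another and do not measure a fold over fibroblasts. In Cy5 these 3 genes were not well above background on p27 knockout replicate 6, nor was Foxp3 on wild type replicate 4. There neither channel was well above background, so those ratios are uncertain, and the folds include them. Without that p27 knockout array the log2 changes were 1.93 for Ctla4, 2.03 for Slfn1 and 0.79 for Foxp3.

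**Figure D1:**
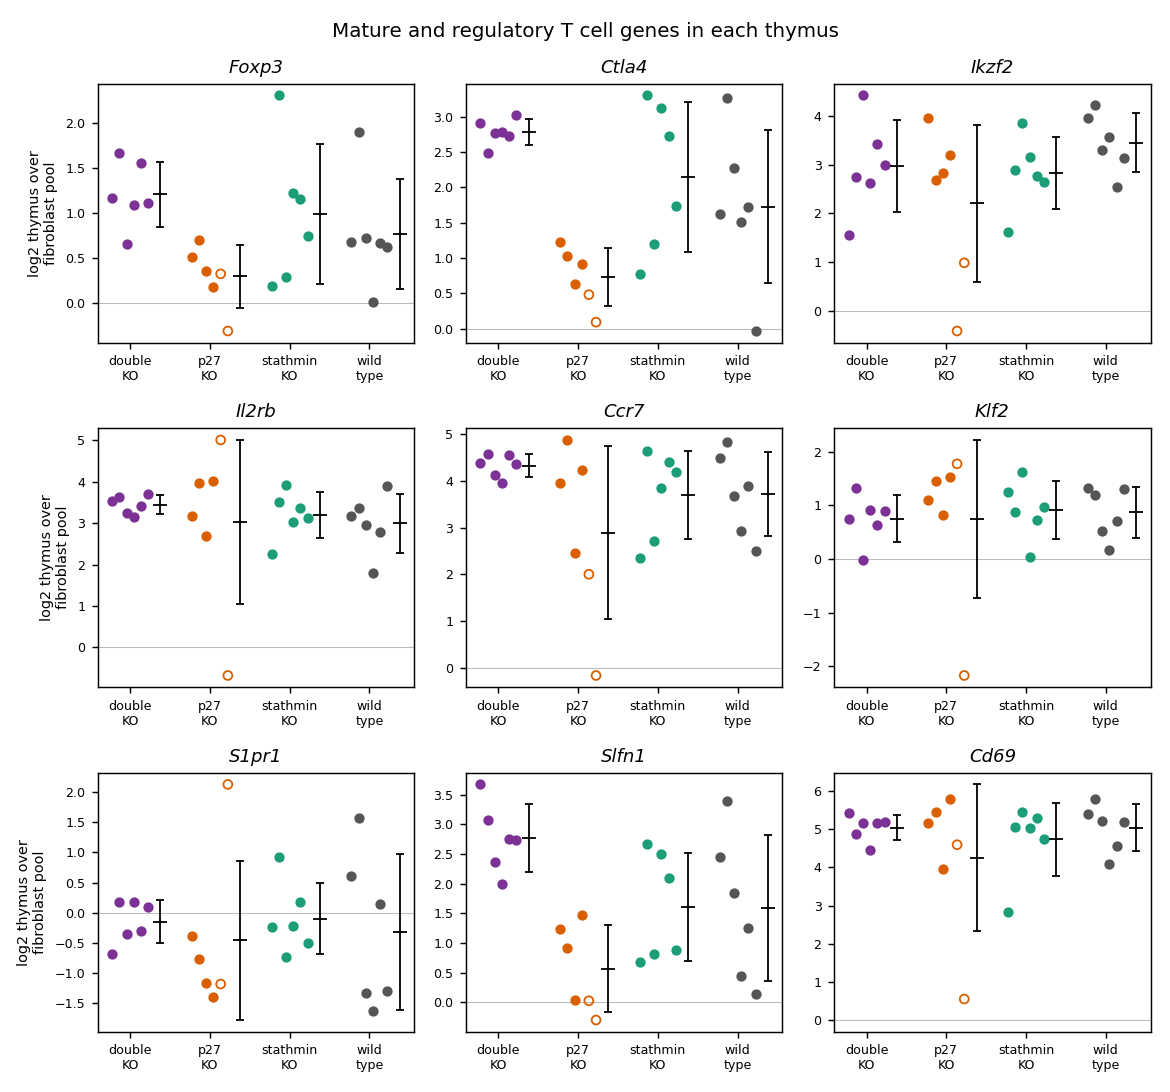
Log2 ratio of thymus over fibroblast pool (vertical axis) for the brighter probe of each gene in 6 double knockout, 6 p27 knockout, 6 stathmin knockout and 6 wild type thymuses. Points are mice, open points are p27 knockout replicates 5 and 6, and bars give mean ± SD. Ctla4 and Slfn1 separate the double from the p27 knockout, and the lowest p27 knockout value of every gene but S1pr1 is an open point.

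Thus 3 of 9 members were called in this comparison, all of them higher, against 30.0% of all probes called, 13.3% higher and 16.8% lower. The groups did not overlap for 2 members, as for 12.7% of probes. An unadjusted p was under 0.05 for 4 members (Ccr7 was the other) and for 43.4% of probes. These counts are near the background, and nothing particular to the members follows from them. All 9 members had a log2 change above 0, against 45.9% of probes, and their median change was 0.79 against -0.16 over all genes. Without p27 knockout replicates 5 and 6, 5 of 9 were above 0 (45.4% of probes), with a median of 0.45 against -0.14.

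Leaving out these arrays kept Ctla4 (1.83 ± 0.48, adjusted p 0.024) and Slfn1 (1.85 ± 0.54, adjusted p 0.031) past the threshold, with 15.0% of probes called and 18.6% not overlapping. Foxp3 had 0.77 ± 0.34 and an adjusted p of 0.12. Its call was also lost without p27 knockout replicate 6 alone (adjusted p 0.063), without double knockout replicate 2 (0.068) and without double knockout replicate 5 (0.064). Ctla4 and Slfn1 passed in each of the fits that left out 1 array, with changes of 1.93 to 2.15 and 2.02 to 2.38.

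Array brightness moved with the p27 knockout. With its log2 as a covariate, a fit chosen after seeing the data, 0 of 9 members and 0.00284% of probes passed (limma). Ctla4 then had a change of 1.09 ± 0.51 and was the 1 member with an unadjusted p under 0.05 (adjusted p 0.60), Slfn1 had 0.73 ± 0.49 and Foxp3 0.16 ± 0.36, while Il2rb, Ccr7, Klf2 and Cd69 had changes below 0. Without replicates 5 and 6 the covariate fit also called 0 members, of which 0 had an unadjusted p under 0.05, and 0.00568% of probes. Over the 18 arrays that were not p27 knockouts, with genotype means removed, 5 of 9 members rose with log2 brightness by permutation tests adjusted over the 9 (100000 resamples): Slfn1 (r = 0.71, rho = 0.72, adjusted p 0.0066 and 0.010), S1pr1 (0.65, 0.59, 0.014 and 0.025), Foxp3 (0.63, 0.65, 0.014 and 0.016), Ccr7 (0.63, 0.56, 0.014 and 0.030) and Ctla4 (0.55, 0.63, 0.036 and 0.016). Without the 2 arrays farthest from the median brightness these r were 0.69, 0.51, 0.51, 0.54 and 0.65. Such a relation was not shown for Cd69 (r = 0.23), Il2rb (0.24), Klf2 (0.12) or Ikzf2 (-0.28). Each slide held too few arrays for a value within it.

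**Figure D2:**
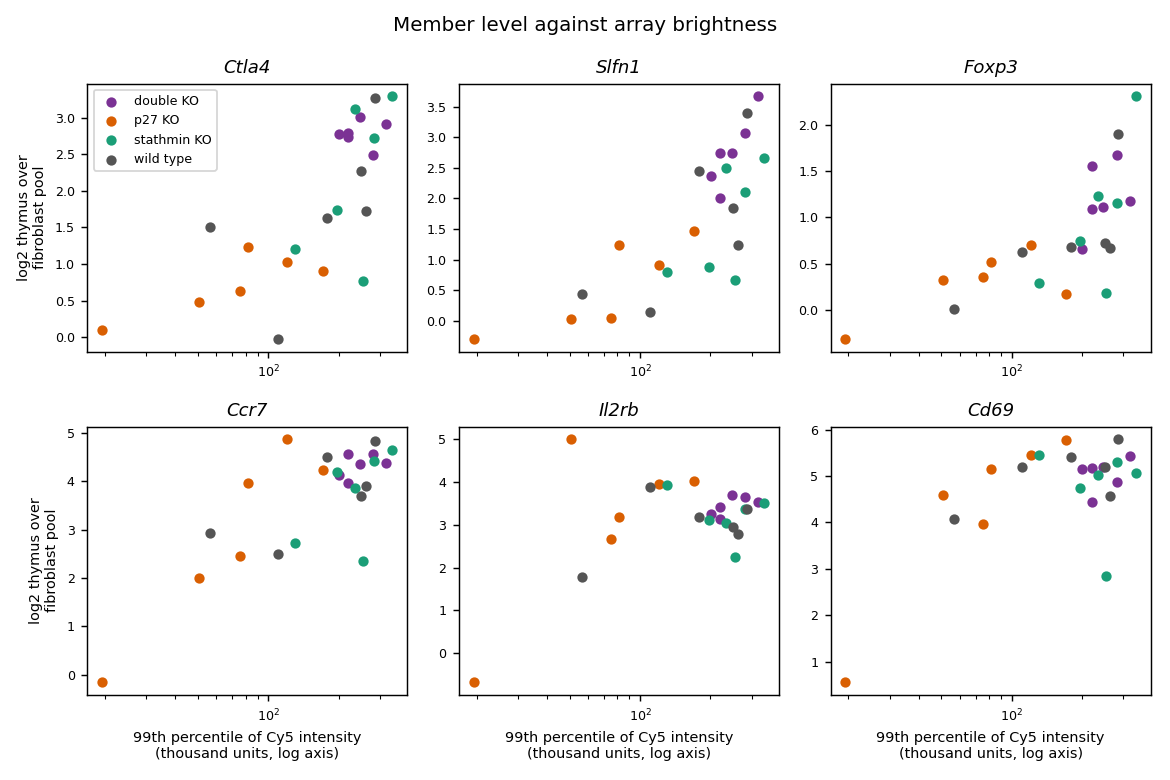
Log2 ratio of thymus over fibroblast pool (vertical axis) against the 99th percentile of Cy5 intensity of each array in units of 1000 (log axis), for 6 members in 24 mice coloured by genotype. Slfn1 and Foxp3 were low on the dim p27 knockout arrays and also on the dimmest wild type array, replicate 4 (0.44 and 0.01 at 56.3), where Ctla4 was 1.51.

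Other ways of scaling moved the count. With each array centred on its pan-T cell genes, 0 of 9 members were called on all arrays (0.00284% of probes), with an unadjusted p under 0.05 for Ctla4, Slfn1 and Ccr7, and 6 of 9 without p27 knockout replicates 5 and 6, namely Foxp3, Ctla4, Il2rb, Ccr7, S1pr1 and Slfn1, when 67.1% of probes were called. The authors' deposited table of log2 values, which follows how bright a spot was in both channels, called 8 of 9 members higher, all but Foxp3, with 52.0% of probes called.

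**Figure D3:**
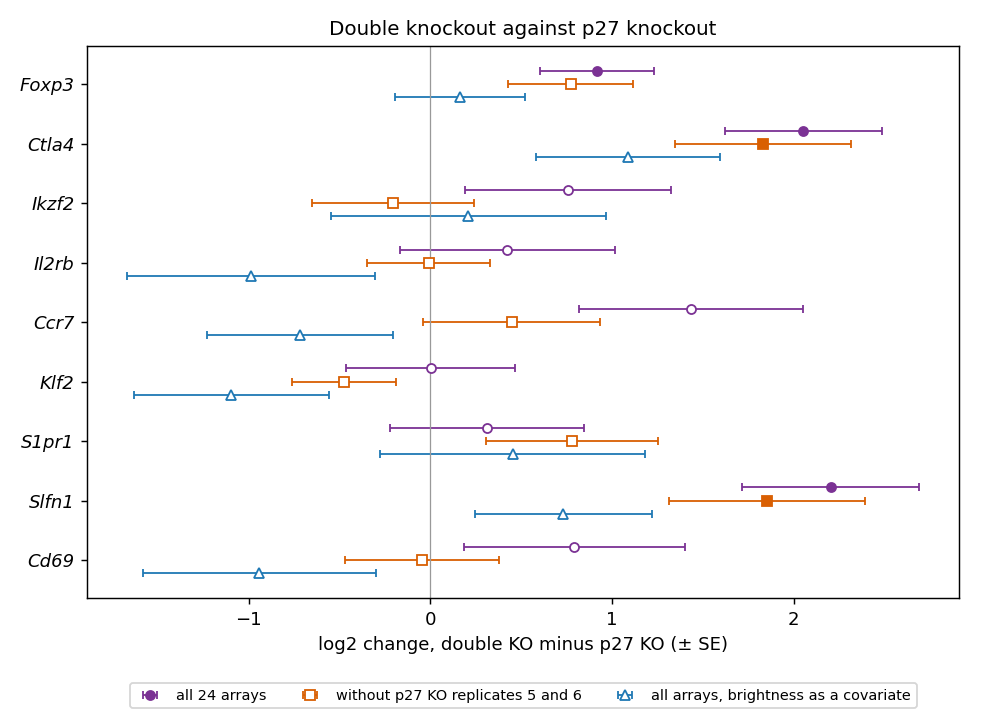
Log2 change ± SE (horizontal axis) of each member in double knockout against p27 knockout thymus, with all 24 arrays (circles), without p27 knockout replicates 5 and 6 (squares) and with array brightness as a covariate (triangles). Filled symbols passed the adjusted threshold. Ctla4 and Slfn1 stay near 2 without the arrays that stand apart, and no symbol is filled with the covariate.

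Markers of other cell types also differed between these genotypes. The median log2 ratio of 10 dendritic cell markers lay between 1.45 and 1.99 in double knockout thymuses, against 0.30 to 1.21 in p27 knockout thymuses, 0.20 to 2.53 in stathmin knockout and 0.53 to 2.13 in wild type ones, with at least 6 of the 10 well above background on every array. Of these markers 3 rose (Ccl22, Clec9a and Flt3) and 1 fell (Xcr1) in the double against the p27 knockout, with equal numbers called when p27 knockout replicates 5 and 6 were left out. Between mice of one genotype Ctla4 followed this marker median (22 arrays without p27 knockout replicates 5 and 6, r = 0.90, rho = 0.88), and Foxp3 (r = 0.80), Slfn1 (0.73) and Ccr7 (0.71) did so too. Array brightness was not removed from these r. In whole thymus, fewer cells of a type and less RNA per cell cannot be told apart for any gene named here.

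Natural killer cell markers had medians of 1.94 to 3.15 in double knockout, 0.32 to 2.32 in p27 knockout, 1.59 to 2.98 in stathmin knockout and 1.64 to 2.65 in wild type thymuses, so the groups overlapped, and 3 of 10 markers rose (Gzmb, Klrb1c and Prf1). B cell markers spanned 2.09 to 3.58 in the double, 0.05 to 3.72 in the p27 and 2.00 to 4.38 in the stathmin knockout and 0.88 to 4.52 in wild type, with 2 of 10 rising (Blk and Cd22). Other lists differed as much in their group means, such as adipocyte markers (3.88 in the double against 2.17 in the p27 knockout, 6 of 10 rising) and lymph node stroma and follicle markers (3.28 in the double against 1.70 in the p27 knockout, 0 of 7 called). Endothelial markers had 2.43 in the double against 1.43 in the p27 knockout (3 of 12 rising), macrophage markers 0.86 in the double against 0.24 in the p27 knockout (3 of 10 rising) and fibroblast markers -3.19 in the double against -2.19 in the p27 knockout (6 of 10 falling). Without replicates 5 and 6, 2 natural killer cell, 0 B cell, 1 adipocyte, 1 endothelial and 1 macrophage marker rose and 0 fibroblast markers fell (limma), and in the same fit 7 of 11 pan-T cell and 8 of 14 double-positive thymocyte markers fell. That fit called 6.04% of all probes higher and 8.95% lower. The part of any of these cells in the member values was not tested.

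Among the other genes of the regulatory T cell programme, 6 of 22 measured rose and 1 fell in the double against the p27 knockout. Of all probes 30.0% were called in that comparison, 13.3% higher and 16.8% lower. These shares also stand behind the counts over all arrays of the marker lists above and of each list below. Behind counts without p27 knockout replicates 5 and 6 stand the shares of that fit, 6.04% higher and 8.95% lower. Whether any list differed from them was not tested. Itgae, the integrin chain CD103 found on regulatory and intraepithelial T cells, averaged 3.32 ± 0.35 in the double knockout and 1.19 ± 1.01 in the p27 knockout (SD, n = 6 each), a change of 2.14 with an adjusted p of 0.0037. Ccr8, a chemokine receptor of regulatory T cells, changed by 0.92 (0.017), and Entpd1, the ATP-degrading enzyme CD39, by 1.45 (0.019). The Helios relative Ikzf4 (Eos) went the other way, at 0.09 ± 0.21 in the double and 1.06 ± 0.62 in the p27 knockout, and fell by 0.97 (0.0088). Without replicates 5 and 6 the list had 4 rising and 2 falling genes, with 6.04% of probes called higher and 8.95% lower. Its median change was 0.26 with all arrays and 0.19 without those replicates, against -0.16 and -0.14 over all genes.

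The costimulation genes around CTLA-4 gave 3 rising genes and 0 falling of 11 measured. They were Cd86, a CTLA-4 ligand of antigen-presenting cells (change 1.94, adjusted p 0.0066), Pdcd1lg2, a PD-1 ligand of such cells (1.74, 0.010), and Btla, an inhibitory receptor of lymphocytes (1.98, 0.027). Without replicates 5 and 6 Cd86 was the one still called, and Cd5 was called lower. Cd28 itself had a change of 1.16 that did not pass (0.26).

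Of 7 measured members of the Schlafen family beside Slfn1, 3 rose and 0 fell: Slfn9 (change 1.02, adjusted p 0.0095), Slfn8 (1.25, 0.0097) and Slfn5 (1.33, 0.022). Slfn5 remained called without replicates 5 and 6 (1.53, 0.034). Slfn2, at 2.55 ± 0.28 in the double and 1.71 ± 1.47 in the p27 knockout, did not pass. The family lies in one cluster in the mouse and its members are related in sequence, so cross-hybridisation of probes was not tested.

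Ikzf2, which encodes Helios, had ratios of 1.57, 2.75, 4.42, 2.62, 3.43 and 3.00 in double knockout mice and 3.96, 2.68, 2.84, 3.19, -0.41 and 0.99 in p27 knockout mice. The low values of the p27 knockout were those of replicates 5 and 6. In stathmin knockout mice it ranged from 1.62 through 2.83 to 3.86, and in wild type from 2.54 through 3.43 to 4.22. The change of 0.76 ± 0.57 did not pass (adjusted p 0.31) and was -0.20 ± 0.45 without those arrays. The second probe was dimmer, with group means of 0.22 in the double, 0.51 in the p27 and 0.01 in the stathmin knockout and 0.24 in wild type, and a change of -0.28, so the probes of this gene differed in sign. Of the 3 clone probes, 2 rose (1.72, adjusted p 0.039, and 1.07, 0.030) and the other had -0.41 (0.44). Without replicates 5 and 6 their changes were 0.80 (0.30), 1.03 (0.055) and, for the one that then fell, -0.88 (0.032). Of the Ikaros family, 1 of 4 other genes passed, Ikzf4.

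Il2rb, the chain shared by the receptors for interleukin-2 and interleukin-15, had ratios of 3.54, 3.64, 3.25, 3.15, 3.42 and 3.71 in the double knockout and 3.18, 3.96, 2.68, 4.02, 5.01 and -0.69 in the p27 knockout. Stathmin knockout mice ran from 2.26 through 3.25 to 3.92 and wild type mice from 1.79 through 3.06 to 3.90. The double knockout values lay inside the p27 knockout range, with a change of 0.42 ± 0.59 (adjusted p 0.60) and of -0.01 ± 0.34 without replicates 5 and 6. Among genes of interleukin-2 and interleukin-15 signalling, 2 of 15 rose, Il7 (1.60, adjusted p 0.029), the survival cytokine made by stroma, and the receptor chain Il2ra (1.33, 0.040), and 1 fell, Il15 (-2.11, 0.011). Il15 averaged 0.54 ± 0.38 in the double and 2.64 ± 1.22 in the p27 knockout, and its fall was also called without replicates 5 and 6 (-2.69, 0.021).

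The egress and homing members were next. Ccr7 had ratios of 4.39, 4.57, 4.13, 3.97, 4.56 and 4.36 in double knockout mice and 3.95, 4.88, 2.45, 4.24, 2.00 and -0.16 in p27 knockout mice. The stathmin knockout ranged from 2.36 through 4.02 to 4.64 and wild type from 2.49 through 3.79 to 4.83. Double knockout thymuses formed a tight high group inside the range of each of the others. The change of 1.43 ± 0.61 did not pass (adjusted p 0.078), and it was 0.45 ± 0.49 without replicates 5 and 6. It passed without p27 knockout replicate 2 (0.025) or replicate 4 (0.041) alone, the highest p27 knockout mice.

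Klf2 had ratios of 0.76, 1.32, -0.01, 0.92, 0.64 and 0.89 in the double knockout and 1.10, 1.45, 0.83, 1.53, 1.78 and -2.18 in the p27 knockout. Its values ran from 0.03 through 0.92 to 1.63 in the stathmin knockout and from 0.17 through 0.96 to 1.32 in wild type. Apart from p27 knockout replicate 6 all thymuses lay in one band, and the change was 0.00 ± 0.46 with all arrays and -0.48 ± 0.29 without replicates 5 and 6. The dimmer probe of Klf2 averaged 0.52 ± 0.16 in the double and 1.38 ± 1.01 in the p27 knockout and fell by 0.87 ± 0.32 (adjusted p 0.043). Its highest array was p27 knockout replicate 5 at 3.32. The call was lost without replicate 5 (-0.48, adjusted p 0.084), without replicates 5 and 6 (-0.39 ± 0.20, 0.17) and with the replicate number as a block (0.051), and the adjusted p lay between 0.014 and 0.084 over the fits that left out 1 array.

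S1pr1, the receptor by which mature thymocytes leave, had ratios of -0.69, 0.18, -0.36, 0.18, -0.31 and 0.10 in the double knockout and -0.38, -0.77, -1.17, -1.40, -1.19 and 2.13 in the p27 knockout. The stathmin knockout spanned -0.74 through -0.23 to 0.92 and wild type -1.63 through -0.58 to 1.58. Of the p27 knockout thymuses 5 lay between -1.40 and -0.38, within the range of wild type, and replicate 6 was the highest array of all. The change was 0.31 ± 0.53 (adjusted p 0.67) with all arrays and 0.78 ± 0.48 (0.24) without replicates 5 and 6. Between mice of one genotype S1pr1 followed B cell markers most closely (r = 0.90, rho = 0.91, 22 arrays), and the markers of lymph node stroma and follicles (0.89), with array brightness not removed. Endothelial cells and B cells are known to carry S1PR1 too, so in whole thymus its level need not be one of mature thymocytes alone. The part of each cell type in it was not tested.

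Of 20 measured genes of egress and sphingosine 1-phosphate, 2 rose, S1pr4 (1.55, adjusted p 0.0050), a lymphocyte receptor of the same lipid, and Sgpp1 (1.31, 0.022), a phosphatase that degrades it, while Klf6 fell by 0.52 (0.036). S1pr4 was also called without replicates 5 and 6 (1.42, 0.027). Among 12 measured chemokine genes of thymocyte migration, Ackr4 (2.21, 0.0037), a scavenger receptor for CCR7 ligands, and Ccl22 (1.82, 0.0045), a dendritic cell chemokine, rose and Ccr9, the receptor of immature thymocytes, fell by 0.94 (0.033). These 3 were called without replicates 5 and 6 as well. The CCR7 ligand Ccl19 averaged 5.36 ± 0.58 in the double and 5.24 ± 2.87 in the p27 knockout and did not pass.

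Cd69, the early retention and activation marker, had ratios of 5.42, 4.88, 5.15, 4.45, 5.17 and 5.19 in double knockout mice and 5.16, 5.45, 3.97, 5.78, 4.59 and 0.55 in p27 knockout mice. It ranged from 2.84 through 5.04 to 5.45 in the stathmin knockout and from 4.08 through 5.20 to 5.80 in wild type. Only p27 knockout replicate 6 and stathmin knockout replicate 1 were below 3.97 among the 24 arrays. The change was 0.79 ± 0.61 (adjusted p 0.32) with all arrays and -0.05 ± 0.43 without replicates 5 and 6. Cd69 lies on chromosome 6, as does Cdkn1b, 48 measured genes away in the gene order of GRCm38.p6, and it was not called between either genotype that lacks Cdkn1b and wild type. Among 12 measured C-type lectin genes of that region, 2 rose, Clec9a (1.48, adjusted p 0.0062), a receptor of dendritic cells, and Klrb1c (0.93, 0.019), a natural killer cell receptor.

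Of 14 measured genes that respond to the antigen receptor, 3 fell in the double against the p27 knockout, near the background of 16.8%, Nr4a1 by 1.05 (adjusted p 0.0041), Junb by 1.16 (0.0091) and Nr4a2 by 1.72 (0.017), all early transcription factors, and 1 rose, Nfatc1 (0.73, 0.0375). Nr4a1 averaged -1.85 ± 0.31 in the double and -0.81 ± 0.29 in the p27 knockout and kept its call without replicates 5 and 6 (-0.89, 0.0245). Of 29 genes of mature single-positive thymocytes 2 rose, Runx3 (2.41, 0.0017), a factor of the CD8 lineage, and H2-Q7 (1.25, 0.014), a non-classical MHC molecule, and 2 fell, the adhesion receptor Cd44 (-1.33, 0.0215) and the repressor Bach2 (-1.72, 0.025). Runx3 averaged 1.83 ± 0.27 in the double and -0.58 ± 0.72 in the p27 knockout, and it was called without replicates 5 and 6 (2.05, 0.016). The list's median change was 0.08 with all arrays and -0.26 without those 2, against -0.16 and -0.14 over all genes.

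Against wild type, no member passed in any knockout. In the p27 knockout 0 of 9 were called, with 0.00568% of probes called. An unadjusted p was under 0.05 for 3 members, all lower, against 29.3% of probes: Ctla4 (-0.995 ± 0.43, adjusted p 0.13), Ikzf2 (-1.24 ± 0.57, 0.15) and Slfn1 (-1.02 ± 0.49, 0.17). Without replicates 5 and 6 these changes were -0.77, -0.29 and -0.67. Leaving out wild type replicate 6, an array of brightness 110.4 with the lowest wild type ratio of Ctla4, brought Ctla4 past the threshold (-1.35 ± 0.39, 0.038), with 11.7% of probes called. The authors' deposited table called 5 members lower, Ctla4, Ikzf2, Ccr7, Slfn1 and Cd69, with 26.3% of probes called.

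In the double knockout 0 of 9 members were called against wild type, with 0.0114% of probes called. Unadjusted p was under 0.05 for Ctla4 (1.06 ± 0.43, adjusted p 0.90) and Slfn1 (1.18 ± 0.49, 0.92), as for 4.63% of probes, and both were higher on 5 of 6 slides. In the stathmin knockout 0 of 9 were called (0.00284% of probes) and none had an unadjusted p under 0.05 (2.37% of probes), with changes from -0.63 for Ikzf2 to 0.42 for Ctla4. Both comparisons share the wild type arrays with that of the p27 knockout.

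Against the stathmin knockout, 0 of 9 members were called in the double knockout (0.00568% of probes), and Slfn1 had an unadjusted p under 0.05 (1.16 ± 0.49, adjusted p 1.00), as had 1.16% of probes. The interaction, the departure of the double knockout from the sum of both single knockouts, called 0 of 9 members and 0% of probes. Its unadjusted p was under 0.05 for Slfn1 (2.18 ± 0.69, adjusted p 0.26) and Ctla4 (1.63 ± 0.61, 0.26), as for 18.4% of probes. In these 5 comparisons no gene of the other lists passed either. By group mean, Ctla4 stood at 2.78 ± 0.18 in the double, 0.73 ± 0.41 in the p27 and 2.14 ± 1.06 in the stathmin knockout and at 1.73 ± 1.08 in wild type (SD, n = 6 each). Slfn1 stood at 2.77 ± 0.58 in the double, 0.56 ± 0.73 in the p27 and 1.61 ± 0.92 in the stathmin knockout and at 1.59 ± 1.23 in wild type. Foxp3 stood at 1.21 ± 0.36 in the double, 0.29 ± 0.35 in the p27 and 0.99 ± 0.78 in the stathmin knockout and at 0.77 ± 0.61 in wild type. For these 3 genes the double knockout was highest, then the stathmin knockout and wild type, with the p27 knockout lowest, and no difference was shown between neighbours in that order.

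Between mice of one genotype the members varied together in part. With genotype means removed over 22 arrays (p27 knockout replicates 5 and 6 left out), 14 of 36 pairs correlated past the threshold, all positively, by permutation tests adjusted over the 36 pairs, and 13 of them also by Spearman's rho. Ctla4 and Slfn1 had r = 0.82 (rho = 0.76), Ccr7 and Slfn1 0.79 (0.76), and Foxp3 correlated with Slfn1 (0.72, 0.72), Ctla4 (0.70, 0.64), S1pr1 (0.70, 0.57) and Ccr7 (0.68, 0.65). Il2rb correlated with Cd69 (0.82, 0.78) and Klf2 (0.58, 0.60), and Cd69 in turn with Ccr7 (0.64, 0.54) and Slfn1 (0.60, 0.65). Ikzf2 joined no pair. Without the 2 arrays farthest from the median these 14 pairs had r between 0.31 and 0.77. The points share array and brightness, and with brightness removed as well, a step chosen after seeing the data, 14 pairs passed, of which 11 were among the pairs above, such as Ctla4 with Slfn1 (0.75) and Il2rb with Cd69 (0.80). The other 3 were Ikzf2 with Cd69 (0.61) and Slfn1 (0.53) and, negatively, Ctla4 with Klf2 (-0.57). S1pr1 then no longer passed with Ctla4 (adjusted p 0.099), Ccr7 (0.085) or Slfn1 (0.078), and over all 24 arrays it passed with no member.

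**Figure D4:**
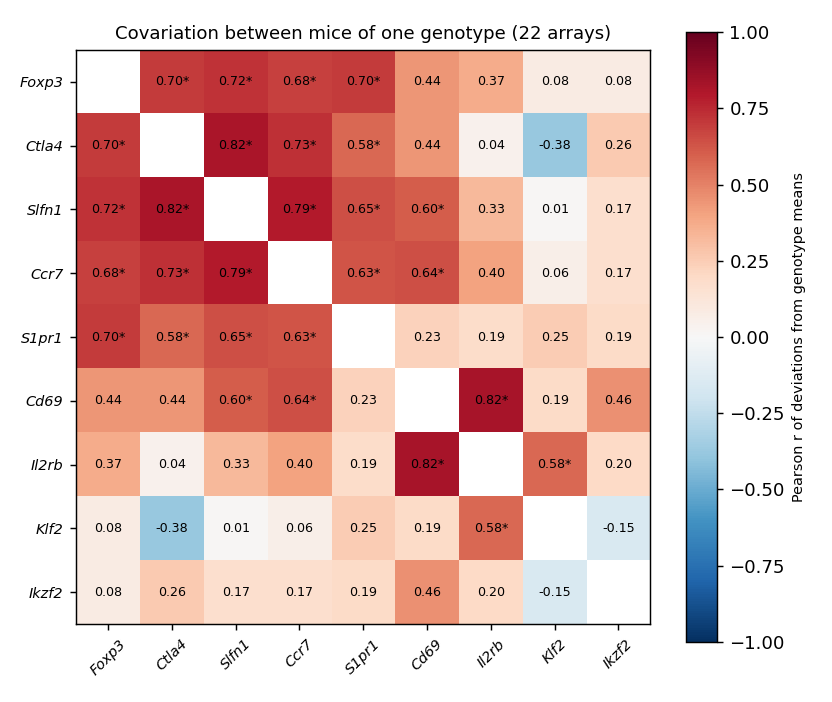
Pearson r between the deviations of each pair of members from their genotype means over 22 arrays (p27 knockout replicates 5 and 6 left out), with colour from -1 to 1 and an asterisk where the permutation p adjusted over 36 pairs was under 0.05. All pairs among Foxp3, Ctla4, Slfn1, Ccr7 and S1pr1 carry an asterisk, Il2rb has one with Cd69 and Klf2, and Cd69 also has one with Ccr7 and Slfn1.

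Set against 13 marker lists over the same arrays, 47 of 117 relations passed by permutation tests adjusted over the 117, 36 positive and 11 negative, and 32 of the 47 also passed by Spearman's rho. Dendritic and natural killer cell markers were each followed by 6 of 9 members (4 and 5 of them also by rho) and double-positive thymocyte markers by 0. Slfn1 went against cortical thymic epithelium (r = -0.70), as did S1pr1 (-0.63), Foxp3 (-0.60), Ctla4 (-0.59) and Ccr7 (-0.56). Pan-T cell markers passed with 3 members, all of them negatively: Slfn1 (r = -0.57), Ctla4 (-0.53) and S1pr1 (-0.50). Of these, Ctla4 alone also passed by rho (-0.59). Without the 2 farthest arrays their r were -0.41, -0.29 and -0.41. Cd69 followed natural killer cell markers (r = 0.72, rho = 0.71). Its r of 0.68 with medullary thymic epithelium markers rested on 2 arrays, being 0.32 without the 2 farthest, and rho was 0.34 (adjusted p 0.26). Brightness was not removed from these marker relations, unlike in the second look at the member pairs, and 5 of 9 members rose with it. What these relations come from was not tested.

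The genes whose ratios were most like each member over these 22 arrays, by Pearson r and with no p, were drawn from all measured genes. Genotype means were left in here, unlike in the relations above. Over all 24 arrays the r of the genes named here ran from 0.31 (Ikzf2 with Olfr1065) to 0.95 (Slfn1 with Tmem150c). For Ctla4 they included Flt3 and Cd1d2 (0.94 and 0.94), for Slfn1 Oas3 and Tmem150c (0.95 and 0.95), and for Foxp3 they were Havcr1, Igkv8-16 and Art2b (0.89, 0.88 and 0.88). S1pr1 was nearest to Pax5, Cd22 and Lyz1 (0.94, 0.93 and 0.93), of which the first pair are B cell genes. Ccr7 was nearest to Gimap3, Sidt1 and Hsh2d (0.91, 0.90 and 0.89), Il2rb to Gpr65, Ikzf3 and Dapk2 (0.89, 0.88 and 0.88) and Cd69 to Ly9, Gpr171 and Gpr65 (0.89, 0.89 and 0.88). Klf2 had Dele1, Carmil1 and Oas1c (0.90, 0.90 and 0.90), and Ikzf2 had Slc43a2, Pnn and Olfr1065 (0.87, 0.83 and 0.83). Gpr65 was thus among the nearest genes of both Il2rb and Cd69.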

How the data were processed

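The 24 mice gave 1 array each, 6 per genotype, grouped by the labels. From each array the authors deposited the mean intensity and the local background of every spot, read by Agilent Feature Extraction (version 9.1.3.1, per the file headers), and the log10 ratios of that software, used as an alternative. A table of log2 values was deposited by the authors too. How it was made is not stated in the labels. Set against each array, its r was 0.99984 or more with the averaged log2 channels and 0.067 or less with their ratio, so it follows brightness, and its centring is unknown. Its column medians were 8.62 to 9.12 in the p27 knockout and 8.66 to 10.6 elsewhere.

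In R 4.3.3, limma 3.58.1 made the ratios from files loaded by the data.table package (version 1.17.8): normexp background correction (offset 50), loess within each array, no scaling between arrays, control spots without weight, outlier spots left out, spots of a probe averaged. Names were updated through RefSeq's genes of GRCm38.p6, matching 22951 probes by accession, 6659 by symbol and 1238 by synonym. Genotypes were compared by limma (lmFit and eBayes over the 24 arrays, genotype as the only term), with Benjamini-Hochberg adjustment over 35185 probes and a threshold of 0.05. The fit was tested on simulated data with independent noise for each probe and array. That test does not cover shared brightness or arrays that stand apart. The p-values rest on the spread between arrays of 1 mouse each, in which differences between mice and between arrays cannot be told apart. Correlations were tested by 100000 two-sided permutations. These shuffled the deviations over all arrays used, across genotypes and slides. The spread of members such as Ctla4 differed between genotypes, so the permutation p-values are approximate. The named genes are all members, at most 3 genes per list and direction with the lowest p, and the 3 genes most like each member, of which 1 is not reported here. A gene such as Slfn2, Cd28, Cd5 or Ccl19 was added after its values were seen. Members and lists were chosen with earlier results of these data known. Alternatives covered background, source of ratio, filter, scaling, block, weights and left-out arrays.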

Additional observations from a re-analysis of the deposited data

Results flagged for a closer look

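In 5 of 36 groups of 6 thymuses (9 genes in 4 genotypes), the highest or lowest array was far from the others, with a gap to its neighbour above the critical share (0.625) of the whole range, while chance gives about 1 group in 20. Foxp3 was high on wild type replicate 2, at a log2 ratio of 1.90 against 0.72 on the next array. Of the others, 3 were on p27 knockout replicate 6, the array where the median pan-T cell ratio was -0.05: Klf2 at -2.18 (next 0.83), S1pr1 at 2.13 (next -0.38) and Cd69 at 0.55 (next 3.97). Cd69 was also low on stathmin knockout replicate 1, at 2.84 against 4.75.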

How the results depend on the processing

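Members past the threshold in the double against the p27 knockout were 3 of 9. They were 8 in the authors' deposited table, 0 when each array was centred on pan-T cell genes, 0 of 5 testable when probes had to be well above background on all arrays (Foxp3, Ctla4, Slfn1 and Ccr7 then drop out by construction), 0 with brightness as a covariate on all arrays and 0 without p27 knockout replicates 5 and 6, and 6 with pan-T centring without those replicates. The brightness fits and the last setting were chosen after seeing the data. Leaving out 1 array gave 2 to 4. In the p27 knockout against wild type the count was 0, with 5 in the authors' table and 0 to 1 without 1 array. In the other 4 comparisons, leaving out 1 array gave 0 to 0. Covarying pairs were 14, and 30 with pan-T centring. That centring takes the same value from every member on an array, which can raise r between members by construction. The higher count is therefore no sign of closer covariation.

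Changes of single genes were listed here where they took the other sign and were called in the main fit or in the alternative. Changes called in neither also took the other sign in places, as for Ikzf2 without replicates 5 and 6, and are not listed. All listed ones were in the double against the p27 knockout, and all but that of the dimmer Ikzf2 probe had been called in the main fit. Ccr9 was at 0.52 in the Cy5 channel alone. In the authors' deposited table they were the dimmer Klf2 probe at 0.17, Cd44 0.40, Bach2 0.30, Klf6 0.76, Ccr9 1.98, Nr4a1 0.54, Junb 0.52 and Nr4a2 0.31. With brightness as a covariate they were Entpd1 at -0.19, Btla -0.062, Cd44 0.29 and Nr4a2 0.091, and without replicates 5 and 6 as well Entpd1 at -0.035 and Cd44 at 0.19. With pan-T centring without those replicates they were the dimmer Ikzf2 probe at 0.86, the dimmer Klf2 probe at 0.64, Ikzf4 0.094, Cd44 0.37, Bach2 0.21, Klf6 0.63, Nr4a1 0.14, Junb 0.24 and Nr4a2 0.19. The cause was not tested.

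Over all probes that comparison called 10572, with 18288 in the authors' table, 5275 without p27 knockout replicates 5 and 6, 1 each with pan-T centring and with brightness, and 23595 with pan-T centring without those replicates. Higher and lower calls were 4675 and 5897, against 5717 and 4843 in the Cy5 channel alone and 18067 and 221 in the authors' table, whose median change was 0.68 against -0.08.

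The replicate number as a block gave 3 members again in the double against the p27 knockout and 0 elsewhere, and slide as a block gave the same counts. The labels do not say that the numbers pair the mice. Deviations of same-numbered arrays correlated by a median of 0.04 over 36 pairs (14 above 0.1), and 3 of 24 arrays correlated best with their own number. Arrays that shared neither number nor slide had a median of -0.03. Whether mice of one number were matched cannot be told from these values. Arrays of one slide correlated by a median of 0.15. Dim arrays limit what low probes can show, and the sex of each mouse was no term.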
